A study of Mus musculus with 16 samples.

Results

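This account describes what differed between the kidneys of male Kl/Kl mice and those of their heterozygous controls, gene group by gene group. The comparison takes the deposited table that holds the male mice, which is 8 of the 16 libraries of the study: 3 controls and 5 Kl/Kl mice. All 8 animals were of the 129S1/SvlmJ strain, an inbred laboratory mouse strain, made congenic for the Kl mutation. The controls carried 1 mutant allele (+/Kl), so no wild-type male is in the comparison, and per the labels they had healthy kidney function while Kl/Kl mice had renal failure. Control replicates 1, 2 and 3 were 45, 45 and 46 days old, and Kl/Kl replicates 1 to 5 were 45, 45, 45, 44 and 47 days old. Polyadenylated RNA from whole kidney was sequenced. Whether every library is a mouse of its own is not stated in the labels, and p-values here speak only for the spread among these libraries, which may be technical.

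Klotho, the protein encoded by Kl, is a membrane protein of the renal tubule that lets FGF receptors respond to FGF23, the bone hormone that lowers phosphate reabsorption and vitamin D activation. Mice without it retain phosphate and make too much active vitamin D. The proximal tubule, the segment that reabsorbs most of the filtered solutes, also takes up and secretes organic ions, oxidises fatty acids and holds many drug-metabolising enzymes. In mice many of these proximal tubule genes are switched by androgens and by growth hormone, so that males and females differ in them.

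Promoter sequence is shown for a gene with one of the largest rises and for both of the largest falls, so that the stretch just before the start of the transcript can be seen beside the values that follow. These are the 250 bases before the start in RefSeq, 5′ to 3′ on the strand of the gene, on build GRCm38.p6, which is another build than that of the deposited values. Capitals mark TATAAA, the core of the TATA box. The windows are chr1:88200361-88200610 (plus strand) for Ugt1a2, chr7:26306942-26307191 (plus strand) for Cyp2a4 and chr6:133853668-133853917 (minus strand) for Kap.
Ugt1a2: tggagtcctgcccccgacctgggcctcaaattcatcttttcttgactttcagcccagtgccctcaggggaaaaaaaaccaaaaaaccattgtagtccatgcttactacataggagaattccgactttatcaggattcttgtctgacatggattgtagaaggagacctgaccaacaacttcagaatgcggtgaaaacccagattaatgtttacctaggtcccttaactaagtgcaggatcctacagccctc
Cyp2a4: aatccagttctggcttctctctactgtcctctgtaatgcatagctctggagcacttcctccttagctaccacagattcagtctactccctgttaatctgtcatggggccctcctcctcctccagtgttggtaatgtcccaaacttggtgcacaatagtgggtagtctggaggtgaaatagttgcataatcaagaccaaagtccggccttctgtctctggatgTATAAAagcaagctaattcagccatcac
Kap: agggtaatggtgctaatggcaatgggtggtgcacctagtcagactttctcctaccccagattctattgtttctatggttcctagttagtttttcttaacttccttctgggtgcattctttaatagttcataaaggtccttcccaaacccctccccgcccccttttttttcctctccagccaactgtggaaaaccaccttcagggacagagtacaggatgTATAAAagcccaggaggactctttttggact
TATAAA begins 28 bases before the start in Cyp2a4 and 31 bases before it in Kap, and these letters are not in the window of Ugt1a2. AGAACA, the core of the site that androgen and glucocorticoid receptors bind as inverted copies, is in none of the 3 windows. Searched on both strands of 32851 windows of this length, TATAAA was in 12.4% and AGAACA in 16.1%. Of the 20 largest falls described below, 14 matched a window, and 4 of these held TATAAA and 2 held AGAACA. Of the 20 largest rises, 16 matched, 4 with TATAAA and 3 with AGAACA. For Cyp4a14 no sequence is shown.

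Levels are given as TPM, here reads per length of the gene from start to end with its introns, scaled so that every library has the same total of 285327. A log2 difference is the Kl/Kl mean minus the control mean of log2(TPM + 1), which is smaller than the log2 ratio where levels are low. A gene was tested when its mean was at least 1 TPM, and it is said to have risen or fallen when its limma p-value, adjusted by Benjamini-Hochberg over all genes tested, was under 0.05. Some genes were under 1 TPM in every library of 1 group and passed the filter only through the other. Among the rises these include Cyp4a14, Ugt1a1, Ugt1a2, Gsta4, Lcn2, Mmp14, C3, Cry2 and Ifit2. The falls of this kind include Slco1a1, Cyp4a12a, Slc22a7, Slc22a19, Cyp2j13, Fmo5, Cd36 and Ccl28. Counts of lists that hold such genes are partly set by the filter.

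Kl itself was 15.1, 11.4 and 4.14 TPM in the controls and 0.0235, 0.039, 0.0452, 0.186 and 0.265 TPM in Kl/Kl replicates 1 to 5. All Kl/Kl values were below the lowest control value, which was that of control 3. Kl fell by 3.19 on the log2 scale (two-sided exact permutation p = 0.0357, the smallest this design allows). Without control 3 it fell by 3.67 (exact permutation p = 0.0952, again the smallest possible).

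Control 3 stood apart from the other 7 libraries. Genes of the mitochondrial genome took 54.3% of its summed TPM, against 35.4% to 44.8% in the others. It had 6439 genes at 1 TPM or more, against 8156 to 8810, and it was the lowest of all 8 libraries for 70.5% of the genes tested. Its estimated depth of 25.2 M reads lay within the range of the others, 24.4 to 31.8 M. Summed over 8 loop of Henle and distal tubule markers it had 95.1 TPM, against 272 to 309 in the other controls and 296 to 369 in Kl/Kl mice. Over 10 proximal tubule markers it had 598 TPM, against 876 and 969 in the other controls and 388 to 778 in Kl/Kl mice. All 10 proximal tubule markers and 7 of the 8 loop and distal markers reached 1 TPM in at least 1 library, so the label kidney is met in each group. Because whole tissue was sequenced, fewer cells of a type and less RNA per cell cannot be told apart in any result below.

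With all 8 libraries, 316 genes rose and 184 fell among 8439 tested, 5.92% in all (3.74% higher, 2.18% lower). Without control 3, 273 rose and 636 fell among 8640, 10.5% in all (3.16% higher, 7.36% lower). List counts without control 3 below are to be read against these last shares, not against 5.92%. In both fits 207 genes were called higher and 175 lower, and 0 genes were called in opposite directions. Of the rises 109 were not called without control 3, and in 93.6% of these it was the lowest of all libraries. Leaving out control 1 or control 2 instead left 178 and 89 rises, so a lost rise is not particular to control 3. Leaving out control 3 added 461 falls, and in 98.5% of those tested both ways it was the lowest control. The median log2 difference of all genes was 0.19 with control 3 and 0.01 without it, and 0.01 when libraries were scaled by median of ratios. Changes below are to be read against that median, and the split of called genes into 63.2% higher and the rest lower became 30.0% higher without control 3 and 39.5% higher with median-of-ratios scaling. Of the called genes 157 (1.86% of those tested) were also called, in the same direction, in each of the 8 fits that left out 1 library: 64 rises and 93 falls. These are said to have held, and in all of them the groups did not overlap. Over all genes tested, every Kl/Kl library was above every control in 19.1% and below every control in 4.4%.

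**Figure D1:**
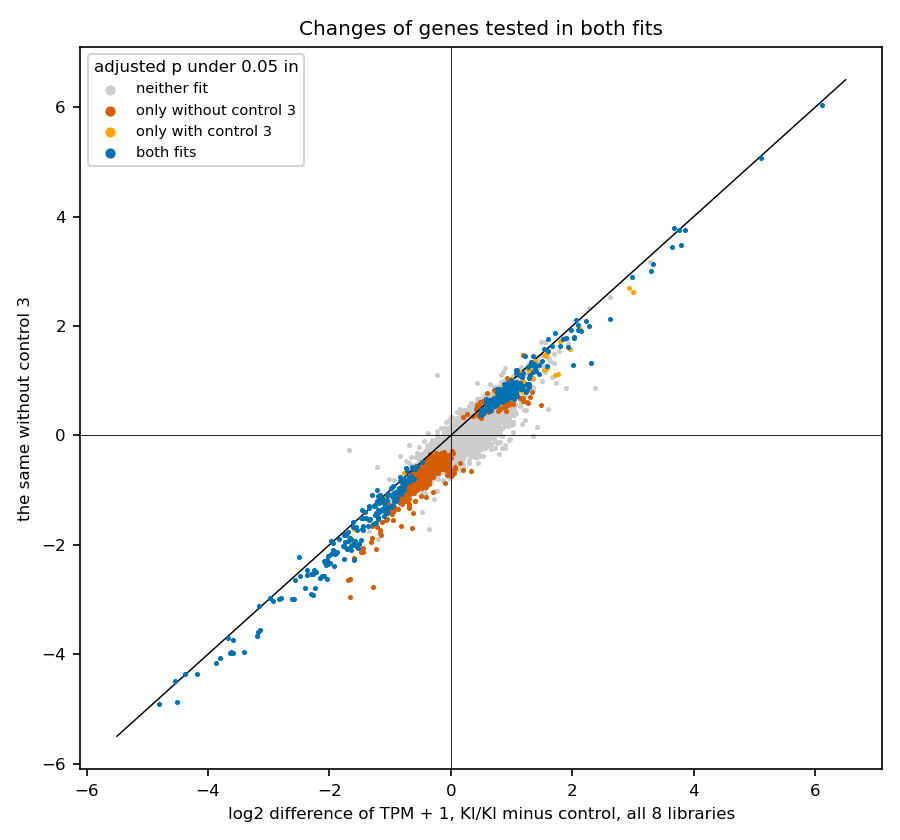
Log2 difference of TPM + 1 (Kl/Kl minus control) with all 8 libraries on the horizontal axis and without control 3 on the vertical axis, 1 point per gene tested both ways, with the line of equality. Large changes lie near the line in both directions. Most genes called only without control 3 (454 falls among genes tested both ways, and fewer rises) are small decreases below it.

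The 20 largest rises that held ran from a log2 difference of 1.92 (Spp1) to 6.11 (Cyp4a14), and the 20 largest falls from -2.57 (Nat8f1) to -4.80 (Cyp2a4). Median-of-ratios scaling kept the direction of all 40. It moved Spp1 only to 1.66 and Nat8f1 to -2.81, so it could not have turned changes of this size and is no test of their direction.

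The largest group of falls was the androgen-regulated or male-biased genes. Of 14 tested members 12 fell and 0 rose (85.7% called, against 5.92% of all genes). This list, like the others, was chosen with earlier results of these data known. Of its falls 11 held, and the median log2 difference was -3.17. Without control 3, 13 of 14 fell with a median of -3.57. Kap, the androgen-regulated protein of the proximal tubule whose promoter is shown above (mm39 chromosome 6, 133826814 to 133830726), was 3910, 3450 and 4080 TPM in the controls and 76.2, 151, 153, 173 and 369 TPM in Kl/Kl mice. Its level in control 3 was not lower than in the other controls, and the Kl/Kl mean was 4.83% of the control mean (log2 difference -4.54, SE 0.38, adjusted p = 5.29e-05). Slco1a1, an uptake carrier for organic anions and steroid conjugates (chromosome 6, 141853008 to 141892689), was 13.8, 17.8 and 6.22 TPM in controls and 0.00445, 0.0246, 0.0197, 0.0756 and 0.143 TPM in Kl/Kl mice. This is 0.424% of the control mean (log2 difference -3.58, SE 0.25, adjusted p = 1.41e-05). Cyp4a12a, a fatty acid hydroxylase of male kidney (chromosome 4, 115156243 to 115190013), was 10.3, 8.07 and 10.3 TPM in controls, with control 3 level with control 1, and 0.0797, 0.134, 0.136, 0.31 and 0.211 TPM in Kl/Kl mice (log2 difference -3.16, SE 0.14, adjusted p = 4.48e-07). Odc1, the enzyme that makes putrescine and starts polyamine synthesis, was 99.0, 152 and 35.7 TPM in controls and 11.2 to 19.3 TPM in Kl/Kl mice (log2 difference -2.31, adjusted p = 0.00648; -2.89 without control 3). Here control 3 lay nearest to the Kl/Kl mice, but still above all of them. Tmigd1 fell as well, with a call that did not hold (adjusted p = 0.0191, up to 0.0635 without 1 library). Receptors of pituitary hormones were measured at low levels. Ghr, the growth hormone receptor, was 2.93, 3.09 and 1.3 TPM in controls and 0.94 to 1.17 TPM in Kl/Kl mice. It missed the threshold with all libraries (log2 difference -0.69, adjusted p = 0.0519) and passed it without control 3 (-0.96, adjusted p = 0.000408). Prlr, the prolactin receptor, was 0.0144 to 0.073 TPM in controls and 0.762 to 2.16 TPM in Kl/Kl mice, so the groups were separate, and it reached the filter of 1 TPM only without control 3 (log2 difference 1.18, adjusted p = 0.0214).

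Steroid-converting enzymes fell in part. Of 10 tested, 1 rose and 4 fell, against 0 and 3 without control 3. Hsd11b1, which regenerates active glucocorticoid inside cells, was 3.47, 2.91 and 3.06 TPM in controls and 0.698 to 1.22 TPM in Kl/Kl mice (log2 difference -1.14, adjusted p = 0.000757). Hsd17b11, a hydroxysteroid dehydrogenase of lipid droplets, was 14.0 to 25.5 TPM in controls and 4.65 to 6.96 TPM in Kl/Kl mice (log2 difference -1.65, adjusted p = 0.0014). In both genes the groups were separate. Akr1c21 fell only with control 3 in the fit (adjusted p = 0.0431; 0.0656 without it).

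**Figure D2:**
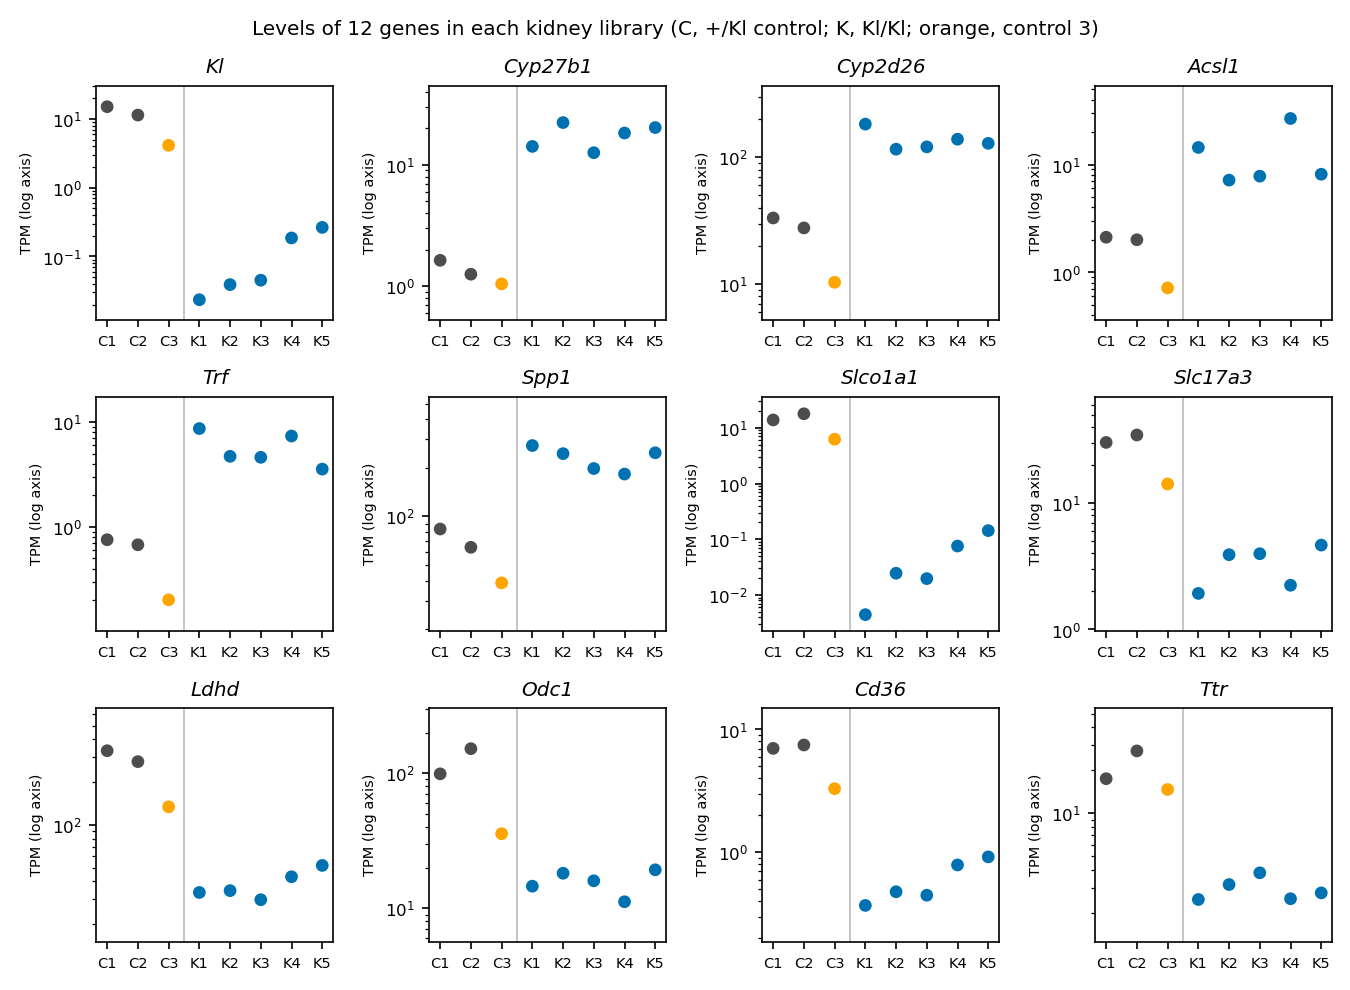
TPM on a log axis of 12 genes in each library (C1 to C3, +/Kl controls, with control 3 in orange; K1 to K5, Kl/Kl mice). Control 3 is the lowest control in every panel shown. All genes shown are among those that held, in which the groups did not overlap, so the choice of genes fixed their separation. Slco1a1, for example, was 6.22 TPM in control 3 and at most 0.143 TPM in Kl/Kl mice.

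Organic ion transporters load waste products and drugs into the urine. Of 19 tested, out of 34 planned, 8 fell and 1 rose (47.4% called, against 5.92% of all genes), with 5 falls that held. Without control 3, 10 fell and 0 rose. Slc22a7, Slc22a19 and Slco1a1 were under 1 TPM in every Kl/Kl library and passed the filter only through the controls. The counts of this list are therefore partly set by the filter. The median was -0.59 with and -0.80 without control 3. Slc17a3, a carrier for organic anions (chromosome 13, 24023417 to 24044700), was 30.3, 34.7 and 14.2 TPM in controls and 1.93, 3.91, 3.98, 2.24 and 4.66 TPM in Kl/Kl mice (log2 difference -2.61, SE 0.31, adjusted p = 0.000757). Slc22a2, a basolateral organic cation transporter, was 8.26, 8.49 and 4.51 TPM in controls and 0.382, 1.32, 1.06, 1.01 and 2.05 TPM in Kl/Kl mice (log2 difference -1.91, SE 0.26, adjusted p = 0.00171). Slc22a19, an organic anion transporter, was 2.61 to 5.75 TPM in controls and 0.0672 to 0.436 TPM in Kl/Kl mice (log2 difference -2.21, adjusted p = 7.96e-05). Slc22a7 fell by 3.81. In each of the 4 the groups were separate, and Kl/Kl 5 was the Kl/Kl library nearest to the controls. The summed proximal tubule markers were lower in Kl/Kl 1 (394 TPM) and Kl/Kl 4 (388 TPM) than in the others. This sum itself holds the organic ion carriers Slc22a6 and Slc22a8. Slc22a6 was 57.7 to 134 TPM in controls and 15.7 to 45.2 TPM in Kl/Kl mice. Slc5a12 went the other way, at 1.17 to 11.1 and 17.5 to 29.7 TPM, and the other members overlapped between the groups. The part of these markers in the falls was not tested.

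Amino acid and sugar transport changed in single genes. Of 20 amino acid and peptide carriers 1 rose and 1 fell (10.0% called, against 5.92% of all genes). Slc7a13, an acidic amino acid and cystine carrier of the straight proximal tubule (chromosome 4, 19818725 to 19842219), was 42.1, 38.4 and 16.5 TPM in controls and 2.04, 3.49, 3.46, 1.39 and 2.7 TPM in Kl/Kl mice (log2 difference -3.14, SE 0.32, adjusted p = 0.000187). Slc6a6, the taurine carrier, was 5.84, 5.8 and 2.37 TPM in controls and 12.6, 10.3, 11.1, 16.4 and 11.1 TPM in Kl/Kl mice (log2 difference 1.29, SE 0.26, adjusted p = 0.0189; 0.95 without control 3). The 2 most abundant brush border members were 25.4 to 52.8 against 30.6 to 46.3 TPM for Slc6a18 and 4.71 to 17.2 against 19.2 to 51.9 TPM for Slc6a19 (adjusted p = 0.878 and 0.0736). Among 20 sugar carriers and gluconeogenic enzymes 1 rose (5.00%, close to the 5.92% of all genes). Slc5a2, the glucose carrier of the early proximal tubule, was 38.9 to 93.2 TPM in controls and 44.8 to 107 TPM in Kl/Kl mice, and Pck1, the enzyme that commits to gluconeogenesis, was 317 to 898 and 483 to 1530 TPM. Both overlapped between the groups.

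The cytochrome P450 families 2 and 4 and the conjugating enzymes, which oxidise fatty acids, steroids and drugs and then tag them for excretion, moved in both directions. Of 18 P450 genes tested 6 rose and 4 fell (55.6% called, against 5.92% of all genes), 8 of which held. Without control 3, 4 rose and 7 fell. Cyp2d26 (chromosome 15, 82674302 to 82678496) was 33.2, 27.7 and 10.3 TPM in controls and 183, 116, 121, 139 and 129 TPM in Kl/Kl mice (log2 difference 2.62, SE 0.34, adjusted p = 0.00117). Control 3 was lowest, and the difference was 2.13 without it. Cyp2a5 and Cyp2a4, neighbouring and nearly identical genes between which reads may be split, went opposite ways. Cyp2a5 was 39.2, 44.3 and 40.2 TPM in controls and 114, 83.0, 97.3, 99.5 and 68.5 TPM in Kl/Kl mice (log2 difference 1.13, adjusted p = 0.012), while Cyp2a4 was 74.1, 84.5 and 63.4 TPM and 0.287, 1.59, 0.943, 1.95 and 6.06 TPM (log2 difference -4.80, SE 0.43, adjusted p = 7.96e-05). Cyp2s1, a P450 of epithelia, was 0.664 to 1.12 TPM in controls and 1.65 to 3.65 TPM in Kl/Kl mice (log2 difference 0.95). Cyp2j13 (chromosome 4, 95915771 to 95965784) was 12.0, 12.2 and 4.59 TPM in controls and 0.00176, 0.0462, 0.0664, 0.089 and 0.246 TPM in Kl/Kl mice, which is 0.935% of the control mean (log2 difference -3.18, SE 0.25, adjusted p = 3.1e-05). Cyp4a14, a hydroxylase of fatty acids switched on by the lipid sensor PPAR alpha, was 0.0673 to 0.357 TPM in controls and 45.5 to 315 TPM in Kl/Kl mice, with the highest value in Kl/Kl 4. Its near copy Cyp4a10 was 2.43 to 7.2 TPM in controls and 26.4 to 189 TPM in Kl/Kl mice, and passed only with control 3 in the fit (adjusted p = 0.0142; 0.0512 without it). Cyp2d22 likewise lost its call (0.024 and 0.0634).

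Among 23 conjugation and ester hydrolysis enzymes 5 rose and 6 fell (47.8% called, against 5.92% of all genes). Without control 3, 4 rose and 9 fell. Ugt1a10, a glucuronosyltransferase that shares its last exons with Ugt1a1 and Ugt1a2, was 2.98, 2.87 and 1.38 TPM in controls and 5.55, 7.62, 7.05, 10.0 and 5.88 TPM in Kl/Kl mice (log2 difference 1.28, SE 0.23, adjusted p = 0.00969). Ugt1a2, whose promoter is shown above (chromosome 1, 88128323 to 88146720), was 0.0314 to 0.119 TPM in controls and 52.6, 49.8, 61.9, 15.4 and 25.9 TPM in Kl/Kl mice (log2 difference 5.12, adjusted p = 2.27e-05). Ugt1a2 was highest in Kl/Kl 3, while Ugt1a10 was highest in Kl/Kl 4, as Ugt1a1 was (29.1 TPM). The span of Ugt1a10 (chromosome 1, 87983110 to 88146727) holds both other genes. Reads may therefore be shared, and their part in these rises was not tested. The falls included the N-acetyltransferase genes Nat8f1 and Nat8f2, close relatives in sequence. Nat8f1 (chromosome 6, 85887136 to 85892670) was 54.5, 51.4 and 45.7 TPM in controls and 4.61, 9.19, 14.9, 3.27 and 11.6 TPM in Kl/Kl mice (log2 difference -2.57, SE 0.39, adjusted p = 0.00326). Nat8f2 was 4.93 to 11.6 and 0.384 to 1.83 TPM (log2 difference -2.03). Fmo5, a flavin monooxygenase, was 6.65, 5.65 and 2.51 TPM in controls and 0.303 to 0.525 TPM in Kl/Kl mice (log2 difference -2.0, adjusted p = 0.000389), with little spread among the Kl/Kl libraries.

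Genes of fatty acid use also split. Of 58 tested 5 rose and 6 fell (19.0% called, against 5.92% of all genes), and 2 and 12 without control 3. The median was 0.41 with and 0.12 without control 3. Acsl1, which activates long-chain fatty acids (chromosome 8, 46924074 to 46989089), was 2.12, 2.01 and 0.719 TPM in controls and 14.4, 7.17, 7.8, 26.7 and 8.13 TPM in Kl/Kl mice (log2 difference 2.28, SE 0.39, adjusted p = 0.00674). Kl/Kl 4 was the highest, as in Cyp4a14. Acox2, a peroxisomal oxidase of branched fatty acids and bile acid precursors, was 0.405 to 1.26 TPM in controls and 2.86 to 4.79 TPM in Kl/Kl mice (log2 difference 1.30, adjusted p = 0.00326). Hacl1, Plin4 and Ldhd are outside the list and its counts, and are given here as genes among the largest changes that held. Hacl1, a peroxisomal lyase of the alpha-oxidation of branched fatty acids (chromosome 14, 31320687 to 31363244), was 0.463, 0.583 and 0.134 TPM in controls and 7.2, 4.15, 4.34, 9.41 and 3.86 TPM in Kl/Kl mice (log2 difference 2.23, SE 0.26, adjusted p = 0.000652). Plin4, a coat protein of lipid droplets, was 0.324 to 0.507 TPM in controls and 5.42, 2.95, 3.89, 12.0 and 2.44 TPM in Kl/Kl mice (log2 difference 1.98, adjusted p = 0.00973). Plin4 is also a fat marker, and the 9 fat markers summed to 8.2 to 13.4 TPM in controls and 12.1 to 47.6 TPM in Kl/Kl mice, with the defining genes Adipoq, Plin1, Retn, Lep and Ucp1 under 1 TPM in all 8 libraries. Adipoq was 0.441 to 0.782 TPM in Kl/Kl 1 to 3 against at most 0.1 TPM in controls, and Cidec, Cfd and Fabp4 were likewise above every control in these 3 libraries (0.604 to 1.47 against at most 0.145 TPM, 10.4 to 16.6 against at most 2.06 TPM and at least 15.2 against at most 10.9 TPM). In Kl/Kl 4, where Plin4 was highest, Cidec (0.172 TPM) and Fabp4 (12.4 TPM) were above the controls, while Adipoq (0.0531 TPM) and Cfd (0.363 TPM) were within their range. The part of fat in the Plin4 levels was not tested.

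On the falling side, Cd36, the scavenger receptor that takes up long-chain fatty acids, was 7.02, 7.48 and 3.3 TPM in controls and 0.37, 0.478, 0.448, 0.79 and 0.919 TPM in Kl/Kl mice (log2 difference -2.06, SE 0.22, adjusted p = 0.000376). Eci3, a peroxisomal isomerase for unsaturated fatty acids, was 12.0, 14.5 and 10.3 TPM in controls and 2.66 to 4.49 TPM in Kl/Kl mice (log2 difference -1.57, adjusted p = 0.000918). Both sets of values were separate between the groups. Ldhd, a mitochondrial dehydrogenase of D-lactate (chromosome 8, 112350417 to 112357007), was 333, 279 and 134 TPM in controls and 33.4, 34.4, 29.7, 43.1 and 51.8 TPM in Kl/Kl mice (log2 difference -2.59, SE 0.31, adjusted p = 0.000714). The lipase Pnpla2, which starts triglyceride breakdown, was 11.8 to 19.5 TPM in controls and 124, 33.9, 25.7, 104 and 36.3 TPM in Kl/Kl mice. It was above every control in each Kl/Kl library and missed the threshold (adjusted p = 0.0694), and its Kl/Kl levels were widely spread.

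Cholesterol synthesis was one of the groups whose count rested on control 3. Of 23 tested members 1 rose and 3 fell with all libraries (17.4% called, against 5.92% of all genes). Without control 3, 0 rose and 8 fell. Cyp51, which removes a methyl group from lanosterol, fell in both and held, at 12.4, 16.7 and 4.98 TPM in controls and 1.03, 1.4, 2.24, 0.79 and 2.65 TPM in Kl/Kl mice (log2 difference -2.15, adjusted p = 0.00474; -2.60 without control 3). Insig1, which holds the pathway's activator in check, was 4.06 to 8.69 TPM in controls and 10.4 to 24.8 TPM in Kl/Kl mice (adjusted p = 0.0558). Apoe, the lipoprotein carrier of cholesterol, was the only one of 9 apolipoproteins, receptors and exporters to rise (11.1%, against 5.92% of all genes). Its levels were 38.3 to 81.5 TPM in controls and 591 to 1130 TPM in Kl/Kl mice (log2 difference 3.79, adjusted p = 1.56e-05).

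Endoplasmic reticulum chaperones showed the same dependence in full. Of 20 tested limma called 0 with all libraries, with 2 at an unadjusted p under 0.05, and 9 fell and 0 rose without control 3. Calr, a calcium-binding chaperone of glycoproteins, was 171, 131 and 74.1 TPM in controls and 61.5, 74.7, 82.2, 44.0 and 69.7 TPM in Kl/Kl mice. Hspa5, the main chaperone of the compartment, was 153, 95.2 and 32.7 TPM in controls and 43.2, 61.2, 74.2, 40.2 and 47.0 TPM in Kl/Kl mice. In both genes controls 1 and 2 lay above all Kl/Kl libraries while control 3 lay among or below them. The log2 difference went from -0.86 to -1.19 in Calr (adjusted p = 0.101 and 0.024) and from -0.59 to -1.21 in Hspa5 (0.376 and 0.034). With median-of-ratios scaling of all 8 libraries 6 of the 20 fell.

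The renin-angiotensin list had 1 rise of 9 with control 3 (11.1%, against 5.92% of all genes), and 1 rise and 3 falls without it. Ace, the enzyme that makes angiotensin II, was 17.2, 18.8 and 4.49 TPM in controls and 2.49, 3.84, 2.61, 3.26 and 6.77 TPM in Kl/Kl mice, so that control 3 was inside the Kl/Kl range (adjusted p = 0.0577; 0.00569 without control 3). Ren1, renin, was 4.03 to 11.3 TPM in controls and 5.39 to 60.1 TPM in Kl/Kl mice, where the value of 60.1 TPM was that of Kl/Kl 1 alone and the next was 14.8 TPM (adjusted p = 0.361). Among 25 megalin endocytosis and lysosome genes limma called 0 with all libraries, with 3 at an unadjusted p under 0.05, and 4 falls without control 3. Ctsl, a lysosomal protease, was 14.8 to 26.9 TPM in controls and 267, 43.9, 53.7, 162 and 41.7 TPM in Kl/Kl mice (adjusted p = 0.0679). It was again highest in Kl/Kl 1 and 4, and every Kl/Kl library was above every control.

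**Figure D3:**
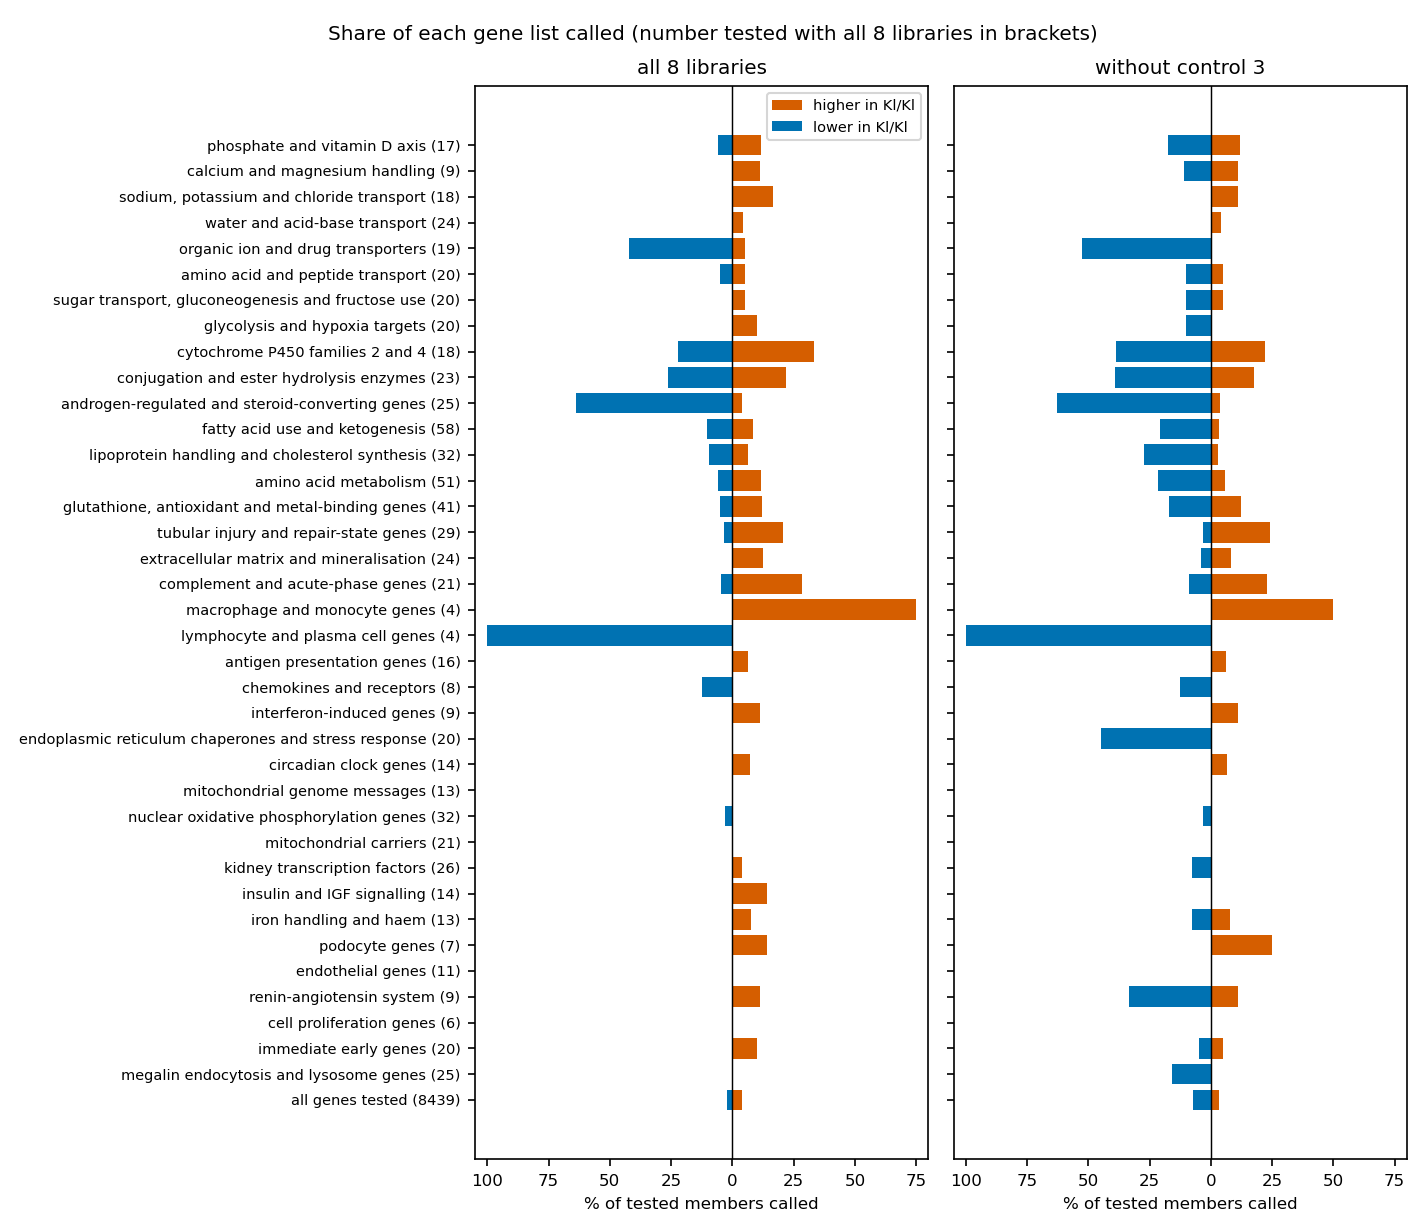
Percent of the tested members of each gene list called higher (orange, to the right) or lower (blue, to the left) in Kl/Kl mice, with all 8 libraries and without control 3. The longer bars for organic ion transporters and for androgen-regulated and steroid-converting genes point left in both panels (8 falls and 1 rise of 19, and 16 falls and 1 rise of 25, with all libraries), while 9 of 20 endoplasmic reticulum genes are called only in the right panel.

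Amino acid metabolism changed in 9 of 51 tested genes with all libraries (6 rose, 3 fell), 17.6% against 5.92% of all genes. Without control 3 it changed in 14 (3 rose, 11 fell). Hpd, an enzyme of tyrosine breakdown, was 7.16, 7.23 and 7.32 TPM in controls, close together in all 3, and 68.7 to 165 TPM in Kl/Kl mice (log2 difference 3.76, adjusted p = 1.55e-05). Acy1, an aminoacylase that frees amino acids from N-acetyl groups, was 73.2, 76.3 and 65.3 TPM in controls and 17.4, 27.7, 24.2, 16.6 and 31.4 TPM in Kl/Kl mice (log2 difference -1.61, SE 0.24, adjusted p = 0.00326). Its relative Acy3 fell by 4.17. Bhmt, a methyltransferase that remakes methionine from betaine, was 0.117 to 0.197 TPM in controls and 0.841 to 4.56 TPM in Kl/Kl mice, and the arginase gene Arg2 was 0.112 to 0.344 and 0.739 to 2.75 TPM. Both passed only with control 3 (adjusted p = 0.0254 and 0.0299; 0.0583 and 0.0687 without it) although the groups did not overlap in either gene.

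Glutathione transferases couple glutathione to reactive compounds. Of 18 genes of glutathione synthesis and transfer 5 rose and 2 fell (38.9% called, against 5.92% of all genes), and 5 and 4 without control 3. The rises were Gsta2, Gsta3, Gsta4, Mgst1 and Mgst3, and all but that of Mgst3 held. Gsta2 (chromosome 9, 78238300 to 78263071) was 1.88, 4.84 and 1.55 TPM in controls and 12.8, 16.3, 20.2, 9.92 and 9.59 TPM in Kl/Kl mice (log2 difference 2.02, SE 0.31, adjusted p = 0.00385). Gsta3 was 0.907 to 2.19 and 3.37 to 7.54 TPM (log2 difference 1.36, adjusted p = 0.00729), and both belong to a family of close copies. Mgst1, the membrane-bound transferase (chromosome 6, 138117314 to 138133754), was 1.47, 1.66 and 1.18 TPM in controls and 12.3, 7.86, 9.86, 18.0 and 3.85 TPM in Kl/Kl mice (log2 difference 2.09, SE 0.35, adjusted p = 0.00658). Gclm and Ggt1 were the 2 falls, named here after their values were seen. Gclm, a subunit of the enzyme that limits glutathione synthesis, was 8.23 to 19.7 TPM in controls and 6.16 to 6.54 TPM in Kl/Kl mice (log2 difference -0.98, adjusted p = 0.0392). Ggt1, which splits glutathione at the brush border, was 27.6 to 52.8 TPM in controls and 14.4 to 20.6 TPM in Kl/Kl mice (log2 difference -1.21, adjusted p = 0.0199). Neither of these falls held (up to 0.114 and 0.0807 without 1 library). Among 17 peroxide-removing and NRF2 target genes limma called 0 with all libraries, with 6 at an unadjusted p under 0.05, and 2 falls without control 3. Gpx3, the secreted glutathione peroxidase made by the kidney, was 1950, 1950 and 1100 TPM in controls and 2400 to 2960 TPM in Kl/Kl mice (adjusted p = 0.0516).

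Of 29 tubular injury and repair-state genes 6 rose and 1 fell (24.1% called, against 5.92% of all genes), and 7 and 1 without control 3. Of these, 3 rises held, those of Spp1, Wfdc2 and Lcn2. Spp1, osteopontin (chromosome 5, 104582984 to 104588917), was 83.5, 64.3 and 38.7 TPM in controls and 275, 245, 198, 183 and 248 TPM in Kl/Kl mice (log2 difference 1.92, SE 0.26, adjusted p = 0.00171). Wfdc2, a secreted protease inhibitor-like protein of injured and fibrotic kidney, was 10.3, 9.17 and 8.56 TPM in controls and 27.0, 27.7, 30.4, 27.4 and 17.6 TPM in Kl/Kl mice (log2 difference 1.37, SE 0.21, adjusted p = 0.00376). Lcn2, a lipocalin of injured tubules and of neutrophils, was 0.416 to 0.74 TPM in controls and 2.49 to 7.17 TPM in Kl/Kl mice (log2 difference 1.84). The 8 neutrophil markers summed to at most 0.27 TPM in controls and to 0.851 to 6.66 TPM in Kl/Kl mice, 5 of them stayed under 1 TPM throughout, and their part in Lcn2 was not tested. Of 24 matrix and mineralisation genes 3 rose and 0 fell (12.5% called, against 5.92% of all genes). Mmp14, a membrane protease that cuts collagen, was 0.18 to 0.455 TPM in controls and 1.12 to 2.85 TPM in Kl/Kl mice (log2 difference 1.07, adjusted p = 0.0142). The abundant matrix genes Bgn and Sparc overlapped between the groups, at 4.67 to 8.86 against 6.91 to 12.4 TPM and 4.43 to 6.39 against 5.34 to 8.93 TPM. Lox, which cross-links collagen, passed only with control 3 in the fit (adjusted p = 0.0299; 0.0689 without it).

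Among 8 tested acute-phase proteins and plasma carriers, out of 22 planned, 5 rose and 1 fell, and 4 and 1 without control 3. Over all genes tested 3.74% rose and 2.18% fell, and 3.16% and 7.36% without control 3. The rises that held were those of Serpina6, Gc and Trf. These genes were under 1 TPM in every control and passed the filter only through the Kl/Kl mice. The counts of this list are therefore partly set by the filter. Trf, transferrin, the iron carrier of plasma (chromosome 9, 103081200 to 103107644), was 0.753, 0.674 and 0.201 TPM in controls and 8.65, 4.7, 4.6, 7.34 and 3.55 TPM in Kl/Kl mice (log2 difference 2.10, SE 0.25, adjusted p = 0.000757). Serpina6, the carrier of corticosteroids, was 0.19 to 0.482 TPM in controls and 75.3, 18.6, 19.2, 16.3 and 4.62 TPM in Kl/Kl mice (log2 difference 3.85, adjusted p = 0.0044). Adrenal cortex markers were present in Kl/Kl 1 and 2, with summed levels of 19.8 and 78.2 TPM against at most 4.99 TPM in the other 6 libraries. Cyp11b1, the adrenal enzyme of the last step to corticosterone, was 1.82 and 9.59 TPM there and at most 0.0225 TPM elsewhere. Serpina6 was 19.2 and 16.3 TPM in Kl/Kl 3 and 4, where these markers summed to 4.3 and 4.99 TPM, and 18.6 TPM in Kl/Kl 2. Ttr, the carrier of thyroxine and retinol-binding protein, went the other way, at 17.5, 27.4 and 14.7 TPM in controls and 2.49, 3.17, 3.83, 2.52 and 2.77 TPM in Kl/Kl mice (log2 difference -2.36, SE 0.22, adjusted p = 9.11e-05). Of the liver markers, Alb, Cyp3a11 and Ahsg were under 1 TPM in all 8 libraries, with Alb at 0.0878 to 0.184 TPM in controls and 0.0449 to 0.14 TPM in Kl/Kl mice. Apoa1, the main protein of high-density lipoprotein, was 0.429 to 0.883 TPM in controls and 8.36, 1.72, 4.62, 14.1 and 1.72 TPM in Kl/Kl mice. Serpina1a, a plasma protease inhibitor, was 0.135 to 0.367 and 0.792 to 2.1 TPM, and Fgb, a fibrinogen chain, was at most 0.041 TPM in controls and 1.52, 0.0612, 0.0418, 0.117 and 0.0642 TPM in Kl/Kl mice. Their part in the levels of the plasma carriers was not tested. The complement gene C3 was the only one of 13 complement genes to rise with all libraries (7.69%, close to the 5.92% of all genes). It was 0.219 to 0.911 TPM in controls and 64.1, 11.7, 10.2, 23.6 and 13.4 TPM in Kl/Kl mice (log2 difference 3.65, adjusted p = 0.00167).

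Immune cell genes gave small lists, since few of them reach 1 TPM in whole kidney. All 4 tested lymphocyte and plasma cell genes fell, out of 22 planned, and 3 of 3 without control 3, but only the fall of Igha held. Over all genes tested 2.18% fell, and 7.36% without control 3. Iglc1 and Jchain were under 1 TPM in every Kl/Kl library and passed the filter only through the controls. These counts are therefore partly set by the filter. Iglc1 and Jchain kept an adjusted p of at most 0.0141 and 0.00325 in the fits that tested them and dropped under the filter of 1 TPM in at least 1 other. Igha, the constant region of antibody class A (chromosome 12, 113218450 to 113223857), was 19.1, 16.3 and 12.1 TPM in controls and 1.68, 1.02, 0.401, 0.726 and 4.38 TPM in Kl/Kl mice (log2 difference -2.82, SE 0.37, adjusted p = 0.00134). Iglc1, a light chain constant region, was 1.78 to 4.3 TPM in controls and 0.29 to 0.693 TPM in Kl/Kl mice, except Kl/Kl 3, where it was 7.47e-06 TPM, the level at which the table puts a gene of its span with no read (log2 difference -1.44, adjusted p = 0.00348). Jchain, which joins antibodies of classes A and M, also fell (adjusted p = 0.000757) and without control 3 it was under the filter. Igkc, the kappa light chain constant region, was 84.1, 84.7 and 85.5 TPM in controls and 24.4, 9.07, 3.7, 3.61 and 26.6 TPM in Kl/Kl mice (log2 difference -2.98, adjusted p = 0.0148, up to 0.0512 without 1 library). Antibody genes are near copies of each other. Ccl28, a chemokine of mucosal epithelia that attracts cells making class A antibody, was 3.74, 7.76 and 2.95 TPM in controls and 0.0981, 0.103, 0.0977, 0.103 and 0.136 TPM in Kl/Kl mice (log2 difference -2.30, SE 0.21, adjusted p = 9.58e-05). It was the only called gene among 8 chemokines and receptors (12.5%, against 5.92% of all genes). The B and T cell genes Cd79a, Ms4a1 and Cd3e were under 1 TPM in every library. Of 4 tested macrophage genes, out of 19 planned, 3 rose (2 of 4 without control 3). Over all genes tested 3.74% rose, and 3.16% without control 3. Among these rises was Lyz2, lysozyme, at 1.3 to 2.55 TPM in controls and 5.51 to 9.23 TPM in Kl/Kl mice. In 1 tested macrophage gene every Kl/Kl library was below every control, and with median-of-ratios scaling 2 of the list were called higher and 1 lower. Of 9 tested interferon-induced genes, out of 25 planned, 1 rose (11.1%, against 5.92% of all genes). That was Ifit2 (0.295 to 0.556 against 1.28 to 2.09 TPM, log2 difference 0.84, adjusted p = 0.00588). Ifit2 was under 1 TPM in every control and passed the filter only through the Kl/Kl mice.

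The mineral axis is closest to Klotho's own role. Of 17 tested genes of phosphate and vitamin D handling 2 rose and 1, Kl, fell (17.6% called, against 5.92% of all genes), all of which held, and 2 rose and 3 fell without control 3. Cyp27b1, which activates vitamin D, was 1.64, 1.26 and 1.05 TPM in controls and 14.2, 22.3, 12.6, 18.3 and 20.3 TPM in Kl/Kl mice (log2 difference 2.98, adjusted p = 1.54e-05), with separate groups. The other rise was Gc, the plasma carrier of vitamin D (log2 difference 3.33). Slc34a1, the main phosphate carrier of the proximal tubule, was 245, 196 and 146 TPM in controls and 126, 156, 155, 89.3 and 206 TPM in Kl/Kl mice, and the groups overlapped (log2 difference -0.44, adjusted p = 0.333; -0.63, adjusted p = 0.181 without control 3). Its scaffold Pdzk1 was 16.0 to 39.7 and 9.45 to 21.3 TPM (adjusted p = 0.195). Of 9 calcium and magnesium genes 1 rose (11.1%, against 5.92% of all genes). That was S100g (44.7 to 69.0 against 148 to 206 TPM, log2 difference 1.71, adjusted p = 0.000791), while the calcium buffer Calb1 was 4.07 to 13.8 against 14.2 to 22.9 TPM (adjusted p = 0.158).

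Along the rest of the nephron, 3 of 18 sodium, potassium and chloride transport genes rose with all libraries (16.7%, against 5.92% of all genes) and 2 without control 3. None of these rises held, among them those of Scnn1g and Sgk1, named after their values were seen (adjusted p up to 0.0932 and 0.115 without 1 library). Of 24 water and acid-base genes 1 rose (4.17%, below the 5.92% of all genes). That was Aqp2, the vasopressin-regulated water channel of the collecting duct, at 67.6, 42.9 and 38.6 TPM in controls and 190, 100, 172, 111 and 115 TPM in Kl/Kl mice (log2 difference 1.45, adjusted p = 0.0142; 1.29, adjusted p = 0.0335 without control 3). This call did not hold, with an adjusted p of 0.0633 without control 2, and of 0.0573 with no filter on low values. The 8 collecting duct markers, Aqp2 among them, summed to 76.4 to 127 TPM in controls and 177 to 253 TPM in Kl/Kl mice, and the part of this sum in the Aqp2 level was not tested. Aqp3 (13.0 to 21.3 against 27.4 to 35.3 TPM) and Scnn1g (0.391 to 0.811 against 1.15 to 1.5 TPM) were above every control in each Kl/Kl library, as Aqp2 was. The other members, Fxyd4, Hsd11b2, Atp6v1b1, Slc4a1 and Slc26a4, overlapped between the groups, for example Fxyd4 at 4.79 to 5.94 against 3.56 to 6.46 TPM and Hsd11b2 at 14.1 to 24.4 against 20.5 to 29.8 TPM. In podocytes, the filter cells, 1 of 7 genes rose with all libraries (14.3%, against 5.92% of all genes), a call that did not hold. Nphs1 was 1.58 to 2.48 TPM in controls and 3.09 to 4.14 TPM in Kl/Kl mice, and Podxl 2.01 to 5.08 and 6.93 to 9.01 TPM. Both passed only without control 3 (adjusted p = 0.0382 and 0.0351; 0.0531 and 0.0577 with it).

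Of 32 nuclear oxidative phosphorylation genes 1 fell (3.12%, against 5.92% of all genes), both with and without control 3, and of 13 mitochondrial messages and 21 mitochondrial carriers limma called 0 either way, with 5 and 3 at an unadjusted p under 0.05 with all libraries. The fall was Cycs, cytochrome c, at 25.1, 29.0 and 24.3 TPM in controls and 9.03, 11.8, 13.9, 7.31 and 11.0 TPM in Kl/Kl mice (log2 difference -1.25, SE 0.22, adjusted p = 0.0081). Atp5b, a subunit of ATP synthase, was 454, 432 and 158 TPM in controls and 342 to 423 TPM in Kl/Kl mice, with control 3 alone outside the range of the rest. Cox6b2, a cytochrome oxidase subunit best known from testis and outside the lists, was 4.64, 4.7 and 5.2 TPM in controls and 23.3, 16.5, 15.9, 49.7 and 22.4 TPM in Kl/Kl mice (log2 difference 2.06, SE 0.32, adjusted p = 0.00416). Of 14 clock genes 1 rose (7.14%, close to the 5.92% of all genes). That was Cry2, a repressor of the clock (0.483 to 0.812 against 1.56 to 2.86 TPM, log2 difference 0.86, adjusted p = 0.0108). The clock output gene Dbp overlapped widely (29.4 to 49.2 against 13.2 to 43.7 TPM). Of 20 immediate early genes 2 rose (10.0%, against 5.92% of all genes), Klf4 and Klf6, both zinc finger transcription factors. Klf4 held, at 1.47 to 1.88 TPM in controls and 3.99 to 8.0 TPM in Kl/Kl mice (log2 difference 1.32, adjusted p = 0.00648).

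**Figure D4:**
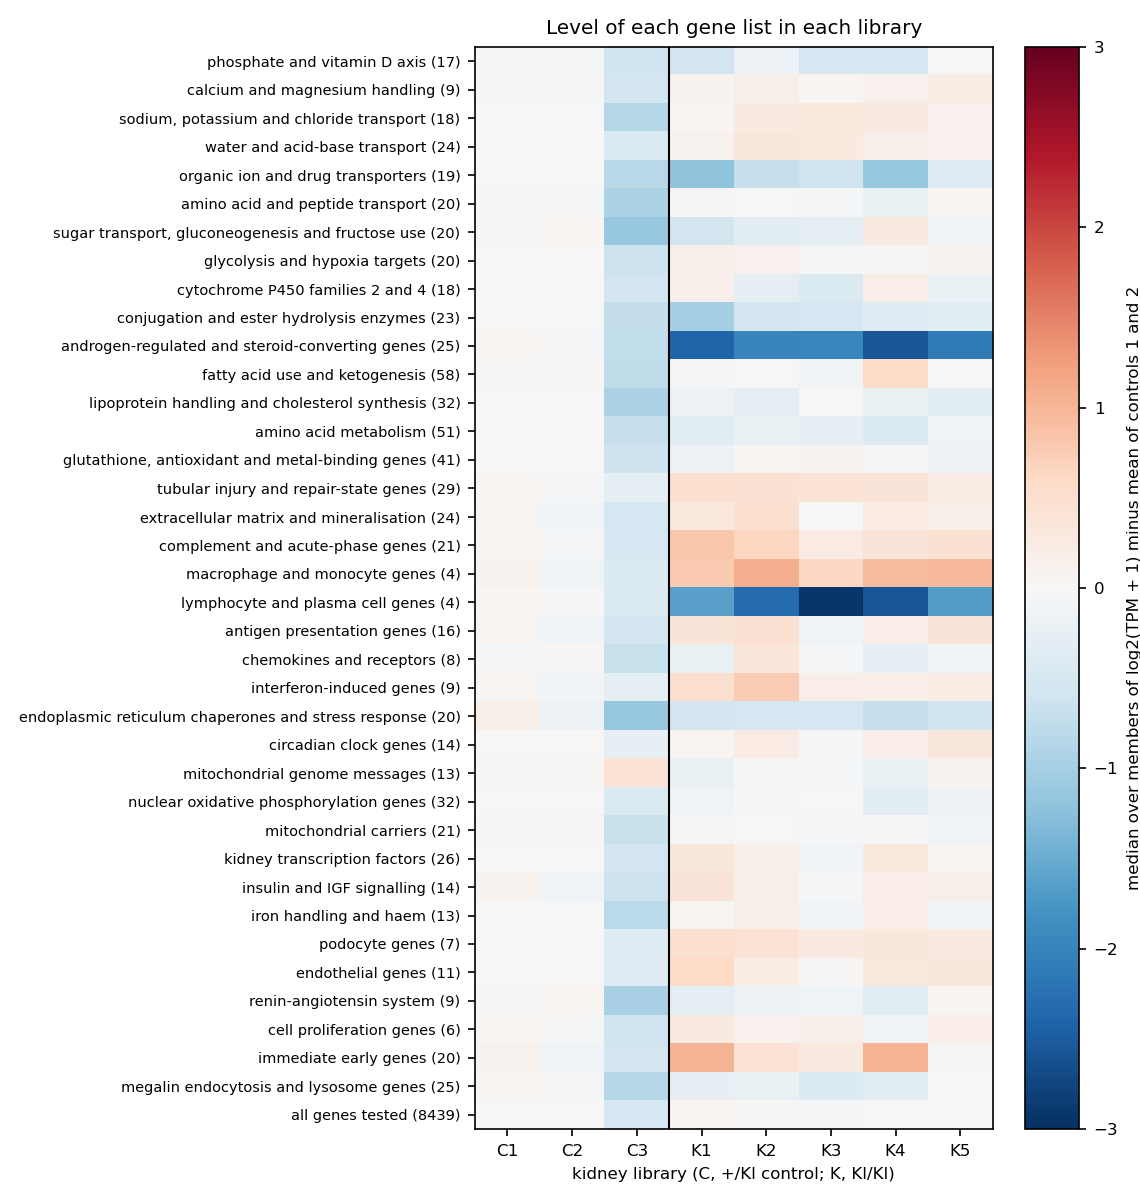
Median over the tested members of each gene list of log2(TPM + 1) minus the mean of controls 1 and 2, per library (columns) and list (rows, number of genes in brackets), red higher and blue lower. The column of control 3 is blue in every row but that of mitochondrial messages, which is red, and the row of androgen-regulated and steroid-converting genes is blue in all 5 Kl/Kl columns.

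Other genes among the largest changes belong to no list. Angptl7, a secreted angiopoietin-like protein (chromosome 4, 148579640 to 148584918), was 94.3, 61.3 and 62.0 TPM in controls and 3.37, 6.06, 5.9, 27.3 and 11.4 TPM in Kl/Kl mice (log2 difference -2.93, SE 0.50, adjusted p = 0.00648). Tmem37, a membrane protein (chromosome 1, 119995107 to 120001805), was 6.32, 2.88 and 2.24 TPM in controls and 30.3, 14.4, 19.6, 25.9 and 10.9 TPM in Kl/Kl mice (log2 difference 2.15, SE 0.35, adjusted p = 0.00557). Rbm3-ps, a pseudogene that may hold reads of its parent gene, was 12.2 to 24.7 TPM in controls and 51.9 to 96.6 TPM in Kl/Kl mice (log2 difference 2.03, adjusted p = 0.00191). Eif1ad4, which resembles other gene copies, was 13.0, 16.2 and 3.99 TPM in controls, while Kl/Kl 1, 2, 4 and 5 stood at 7.56e-06 to 1.01e-05 TPM, the level at which the table puts a gene of its span with no read, and Kl/Kl 3 at 0.00153 TPM, so no fold is given. Reads of both can be shared with related loci.

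The remaining lists are read against 5.92% of all genes called with all libraries, and against 10.5% (7.36% lower) without control 3. Of 20 glycolysis genes and hypoxia targets 2 rose with all libraries (10.0%). Without control 3, 2 of the 20 were called, both lower, which is close to the share of all genes. Of 14 insulin and IGF signalling genes 2 rose (14.3%), against 0 without control 3. None of these 4 rises held. Of 26 kidney transcription factors 1 rose with all libraries (3.85%) and 2 fell without control 3, and of 16 antigen presentation genes 1 rose either way (6.25%). Of 13 iron and haem genes Trf rose (7.69%), joined by 1 fall without control 3. Among 11 endothelial, 6 proliferation and 6 metal-binding genes limma called 0 with all libraries, with 6, 2 and 3 at an unadjusted p under 0.05. Igfbp3 and Plvap of the endothelium were 14.9 to 23.3 against 12.5 to 46.7 TPM and 5.85 to 10.9 against 10.5 to 21.9 TPM, and Ccnd1, a cyclin, ranged from 18.5 to 43.9 TPM in controls and from 9.64 to 60.5 TPM in Kl/Kl mice. Among markers of other tissues, the 7 blood genes summed to 37.4 to 147 TPM in controls and 42.1 to 211 TPM in Kl/Kl mice, and the urothelial genes to 1.28 to 3.06 and 1.28 to 4.14 TPM. The lymphoid organ genes summed to 1.46 to 2.78 and 1.2 to 3.04 TPM, the liver genes, mostly Ttr in controls, to 15.4 to 28.7 and 5.47 to 18.9 TPM, and each of the 8 muscle genes was under 1 TPM in every library.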

How the data were processed

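The authors deposited TPM values per gene, 1 table for the male mice, whose 8 columns were matched to samples by the library names in the labels. Build mm39 and the program Partek are named in the submitters' processing notes, and gene models come from Ensembl, per the file headers. Aligner, counting method and strand use were not given in the sources used here, so antisense and near-identical genes may share reads. No value was 0: from the lowest values, each gene was divided by its genomic span (median 9858 bp) and unread genes stood at a small offset, which gave the estimated depths. Short and mitochondrial genes therefore take large shares.

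Of 30277 genes, those with a mean of at least 1 TPM were analysed as log2(TPM + 1) with limma 3.58.1 (lmFit, eBayes with trend) in R 4.3.3, Kl/Kl against control without covariates, at a Benjamini-Hochberg adjusted p under 0.05. Kl was also tested with an exact permutation test in SciPy 1.17.1. The limma script was tested on simulated data. Plots used matplotlib 3.10.9.

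The comparison, the 37 gene lists (1091 genes, 717 tested, 25 in more than 1 list) and the marker lists were chosen with earlier results of these data known. Named were Kl, the 20 largest rises and falls that held without any 1 library, reached a mean of 5 TPM in either group and had separate groups, up to 4 rises and falls per list role that held, or otherwise its 2 most abundant members as values, and up to 5 genes of each kind that depended on control 3. Other genes named were chosen after their values were seen. Some genes that this rule takes are not reported here. The fits were repeated without each library, with a replicate block, array weights, age or library-name prefix, with rescaling without mitochondrial genes or by median of ratios, and with changed pseudocounts and filters. The other table, with the female mice, was not used here.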

Additional observations from a re-analysis of the deposited data

Results flagged for a closer look

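For 9 of 161 named genes, 1 of the 5 Kl/Kl libraries lay far from the other 4 on the log2 scale. The gap test used is one that chance alone passes in about 1 of 20 groups, and 9 of 161 is close to that share. Kl/Kl 5 was the library in 6 of them, and in all 6 it lay on the side of the controls. It was nearest to the controls in 61 of the 93 falls and 31 of the 64 rises that held, so this side is not a separate result. In Kl/Kl 5, S100g was 148 TPM (187 to 206 in the other Kl/Kl mice), Gc was 6.63 TPM (13.5 to 17.8) and Wfdc2 was 17.6 TPM (27.0 to 30.4). On the falling side it had 0.436 TPM of Slc22a19 (0.0672 to 0.0922), 0.189 TPM of Ugt2b37 (0.0641 to 0.0966) and 0.136 TPM of Ccl28 (0.0977 to 0.103). In Kl/Kl 3, Calb1 was 22.9 TPM (14.2 to 15.9) and Eif1ad4 was 0.00153 TPM, where the other 4 (7.56e-06 to 1.01e-05 TPM) were at the level of a gene of its span with no read. In Kl/Kl 4, Cryab was 12.8 TPM (24.3 to 30.2).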

How the results depend on the processing

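None of the 160 named genes compared reversed a call under any alternative run. With no filter on low values 12 lost their call, among them Acsl1, Angptl7, Aqp2, Cyp2s1, Igkc, Mgst1, Mmp14, Odc1, Plin4, Serpina6 and Slc6a6, at adjusted p from 0.0512 to 0.0794. With the replicate number as a block 7 did, among them Cry2, Cycs, Cyp2a5, Cyp2s1, Slc6a6 and Ugt1a10, at 0.0548 to 0.0774. The other settings that kept all 8 libraries lost 0 of the genes they tested among the 160. The counts of called genes did move. Leaving out 1 library in turn gave 89 (without control 2) to 317 (without Kl/Kl 5) rises and 96 (without control 2) to 636 (without control 3) falls, against 316 and 184. The fall of Kl ran from -3.67 to -2.85 in these fits, with exact permutation p from 0.0571 to 0.0952, the smallest those designs allow. Falls numbered 698 with median-of-ratios scaling, 365 with rescaling without mitochondrial genes, 322 with no filter on low values and 111 with a mean of at least 5 TPM, while rises stayed within 1.5 times (455, 473, 243 and 211). Array weights, which gave control 3 a weight of 0.0607 against 0.564 to 5.27 for the others, gave 1375 rises and 1454 falls. The prefix of the library name as a covariate gave 990 rises and 259 falls. Same-numbered replicates did not deviate together (correlations -0.13, 0.04 and -0.18), so their numbers establish no pairing, and with the number as a replicate block 115 genes rose and 112 fell. In 2 alternatives chosen after seeing the data, leaving out control 3 together with rescaling without mitochondrial genes or with median-of-ratios scaling, 622 and 656 genes fell and 425 and 453 rose. The causes of these shifts were not tested. With 3 controls, 1 of which stands apart, small differences are not settled by these data, and no interval from counting could be computed from TPM.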

Other observations

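Among the Kl/Kl mice the size of the changes followed the library. Of the 93 falls that held without any 1 library, Kl/Kl 5 was nearest to the controls in 61, and Kl/Kl 1 and 4 were farthest in 35 and 32. Of the 64 rises that held, Kl/Kl 5 was nearest in 31, and Kl/Kl 1 and 4 were farthest in 30 and 19. Kl/Kl 1 and 4 had a Spearman correlation of 0.95 with each other across genes, which are not independent replicates, and of 0.785 to 0.847 with the controls. They also had the lowest mitochondrial shares (35.4% and 37.0%), and Kl/Kl 5 had the highest of the Kl/Kl mice (44.8%).

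Adrenal steroid genes were measured in 2 Kl/Kl libraries. Cyp21a1, an enzyme of corticosteroid synthesis, was 3.28 and 25.0 TPM in Kl/Kl 1 and 2 and at most 0.0738 TPM in the other 6 libraries. Star, which brings cholesterol to the first enzyme of steroid synthesis, was 3.22 and 16.6 TPM there and at most 0.662 TPM elsewhere.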
